A study of Mus musculus with 18 samples.

Results

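Among 18 mouse hippocampus RNA-seq libraries, 5 held abundant transcripts of the choroid plexus, and these were compared with the other 13. The libraries were chosen by a single gene, Ttr, which encodes the thyroid hormone carrier transthyretin: a rich library had at least 2000 CPM (estimated counts of a gene per M counts of its library) and a poor library had fewer. Ttr was at 3603 to 10020 CPM in the rich libraries and at 34.93 to 1083 CPM (median 87.8) in the poor ones. The rich library nearest to the threshold was S-V 4, at 3603 CPM, and the nearest poor libraries were D+V 5, at 1083 CPM, and Control 2, at 994.2 CPM. These Ttr values selected the libraries, and Ttr is left out of every result that follows.

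The series asked how rotation that disturbs orientation alters the transcriptome of the hippocampus, and tissue was taken directly after the rotation. Control mice were blank controls (n = 3 libraries), S-V mice were rotated in 1 direction with vision blocked (n = 5), D+V mice were rotated in 2 directions with vision free (n = 5), and D-V mice were rotated in 2 directions with vision blocked, which the labels call the Coriolis illusion (n = 5). The labels give neither strain, sex, age nor genotype, and nothing states that the libraries come from different animals; the p-values describe the spread of these libraries, which may be technical. The rich libraries were S-V 2 and S-V 4, D+V 2, and D-V 3 and D-V 4. No Control library was rich, so the comparison of the 2 sets rested on the 3 rotated groups, with the treatment group as a term of the fit.

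The choroid plexus is a folded sheet of epithelium that hangs into the brain ventricles and secretes the cerebrospinal fluid. Its epithelial cells carry motile cilia, are sealed to each other by tight junctions, and surround a core of stroma with leaky, fenestrated capillaries. The plexus of the lateral ventricle lies against the fimbria of the hippocampus, and its epithelium is the main site of Ttr synthesis in the brain. In bulk tissue, more cells of a type and more RNA per cell cannot be told apart.

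The depth of the sets overlapped. Totals ran from 15.39 to 22.27 M estimated counts in the rich libraries and from 15.03 to 25.31 M in the poor ones, and mitochondrially encoded transcripts made up 8.272% to 9.377% and 7.02% to 9.066% of counts. The labelled tissue matched its markers in both sets: Prox1, the transcription factor that defines dentate granule cells, was at 96.2 to 143 CPM in the rich libraries and 81.1 to 154 CPM in the poor ones.

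Of 14762 genes tested, 733 were called higher in the rich libraries, which is 4.97% of all genes, and 32 were called lower, which is 0.217% (edgeR quasi-likelihood test, Benjamini-Hochberg adjusted p under 0.05). The higher genes had a median log2 difference of 0.819 and reached 5.97, with 287 past 2-fold, 113 past 4-fold and 49 past 8-fold. The lower genes had a median log2 difference of -0.204. All 5 rich libraries lay above all 13 poor ones for 272 genes, 1.84% of those tested, and below all of them for 0 genes, 0%. Together the 733 genes held 1.603% to 2.413% of counts in the rich libraries and 1.021% to 1.234% in the poor ones. Since the libraries were chosen by a transcript of the choroid epithelium, the direction of other genes of that epithelium follows from the choice. For the 6 choroid lists the counts called and the values are a description only, and no p-values are given. The library D+V 2 weighed most on the higher calls: without it the fit called 419 genes higher.

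Members of 6 lists of choroid plexus genes accounted for 59 of the genes called higher. The lists held 69 tested genes, of which 68 had a positive difference, 49 were past 2-fold and 34 past 4-fold, and 51 had no overlap between the sets. Their median log2 difference was 1.97, beside -0.00527 over all genes tested. Summed over the lists and without Ttr, choroid genes made up 4534 to 8310 CPM in the rich libraries and 1798 to 2576 CPM in the poor ones. Genes that were high in both sets weigh on these sums, such as Ctsd, at 512 to 705 against 388 to 505 CPM. Slc4a10 was at 204 to 265 against 160 to 250 CPM. The median of the poor libraries was over 10 CPM for 28 of the 69 genes and under 1 CPM for 14. The sums are thus no measure of the share of choroid RNA. D+V 2 and D-V 3 were the 2 highest of the 18 libraries for 60 of the 69 genes. The highest poor library was D+V 5 for 24 of them and Control 2 for 23, the poor libraries with the most Ttr (1083 and 994.2 CPM).

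Genes for ion and water transport, by which the epithelium drives fluid secretion, had the highest median of the 6 lists. Of 11 tested, 10 were called higher, with a median log2 difference of 3.34. Kcne2 (ENSMUSG00000039672), an auxiliary subunit of potassium channels in the apical membrane, was at 24.9 CPM in S-V 2, 22.6 in S-V 4, 41.1 in D+V 2, 50 in D-V 3, with 26.7 in D-V 4, against a lowest of 0.133, a median of 0.814 and a highest of 7.16 CPM in the poor libraries (log2 4.76, SE 0.52). The lowest rich library was thus above the highest poor one, Control 2. Kcnj13, an inward rectifier potassium channel, was at 23.6, 24, 54.8, 56.1 and 31.8 CPM in the same order of rich libraries, against 0.335 to 6.09 (median 0.84) CPM in the poor ones (log2 4.67, SE 0.47).

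Aqp1 (ENSMUSG00000004655), the apical water channel of this epithelium, was at 18, 17.5, 53, 56.1 and 23.1 CPM in S-V 2, S-V 4, D+V 2, D-V 3 and D-V 4. In the poor libraries it ran from 0 in D+V 3 through a median of 0.783 to 8.66 CPM in D+V 5 (log2 4.48, SE 0.58). Slc4a5, a sodium bicarbonate cotransporter, was at 20.1 to 61.4 CPM in the rich set and 0.294 to 8.07 CPM in the poor set. The chloride channel protein Clic6 was at 65.9 to 159 CPM against 3.28 to 19.6 CPM, and the calcium-permeable channel Trpv4 at 10.7 to 36.9 against 1.13 to 4.76 CPM. Slc12a2, the sodium-potassium-chloride cotransporter NKCC1, which many other brain cells express, differed less, at 81.3 to 153 CPM against 57.2 to 72.7 CPM (log2 0.72, SE 0.10). The remaining member, the bicarbonate transporter Slc4a10, was not called (log2 0.22, SE 0.07).

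**Figure D1:**
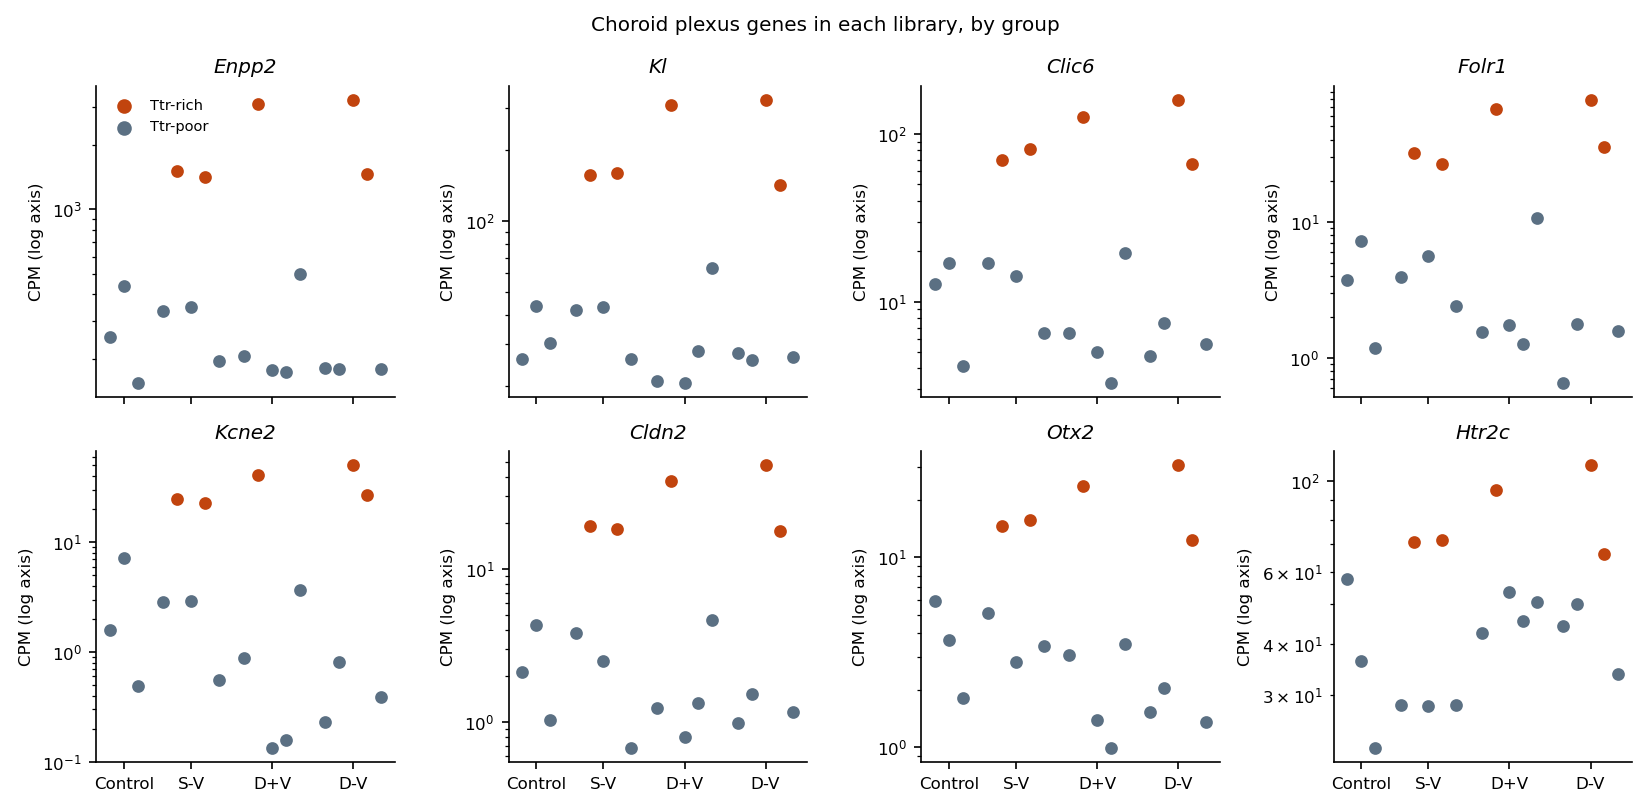
CPM (log axis) of 8 choroid plexus genes in each of the 18 libraries, by treatment group. The 5 Ttr-rich libraries lie above all 13 Ttr-poor ones in every panel; in the panel of Htr2c the gap is narrow, 66.2 CPM in the lowest rich library and 57.5 CPM in the highest poor one.

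Secreted proteins had 11 of 12 tested genes called higher, with a median log2 difference of 2.38. Enpp2 (ENSMUSG00000022425), which encodes autotaxin, the enzyme that makes lysophosphatidic acid, was at 1510 CPM in S-V 2, 1420 in S-V 4, 3110 in D+V 2, 3240 in D-V 3, with 1460 in D-V 4. The poor libraries held 154 to 498 CPM with a median of 195 (log2 3.18, SE 0.29). D+V 2 and D-V 3 held far more than the other 3 rich libraries, which were close to each other. Igf2, a growth factor carried in the cerebrospinal fluid, was at 140, 170, 235, 315 and 210 CPM in the rich libraries and at 33.2 to 99.7 (median 57.4) CPM in the poor ones (log2 1.97, SE 0.21). Its binding protein Igfbp2 was at 76.4 to 190 against 18.9 to 46.8 CPM. Coagulation factor F5 (log2 4.26, SE 0.46), the Wnt and BMP antagonist Sostdc1 (log2 3.11, SE 0.29) and the lipopolysaccharide-binding protein Lbp (log2 2.62, SE 0.23) were also apart in the sets. Cp, the copper ferroxidase ceruloplasmin, was not called (log2 0.35, SE 0.15).

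Carriers of nutrients, vitamins and metals had 14 of 16 tested genes called higher, with a median log2 difference of 1.3. Folr1 (ENSMUSG00000001827), the receptor by which the plexus passes folate into the fluid, was at 32.2, 26.7, 66.9, 78.1 and 35.4 CPM in S-V 2, S-V 4, D+V 2, D-V 3 and D-V 4, against 0.653 to 10.7 (median 1.77) CPM in the poor libraries (log2 4.07, SE 0.45). Slc2a12, a sugar transporter, was at 26.2 to 50.5 against 4.3 to 10.5 CPM (log2 2.6, SE 0.19), and the sulphate transporter Slc13a4 at 27.8 to 66.8 against 4.35 to 20 CPM. Slc31a1, the copper importer CTR1, was at 42.9 to 76.9 against 17.4 to 26.6 CPM (log2 1.36, SE 0.12). Slco1c1, an organic anion transporter that is found on other brain cells as well, differed by less than these (log2 0.78, SE 0.09). The uncalled members were the drug exporter Abcc1 (log2 0.26, SE 0.08) and the vitamin C transporter Slc23a2 (log2 0.22, SE 0.07).

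Junction and epithelial structure genes had 11 of 12 called higher, with a median log2 difference of 2.03. Cldn2, a claudin that forms paracellular channels for cations and water, was at 19.1, 18.3, 37.7, 47.4 and 17.7 CPM in the rich libraries and at 0.673 to 4.66 (median 1.34) CPM in the poor ones (log2 3.92, SE 0.38). Cldn1, a sealing claudin, was at 10.1 to 22.2 against 1.23 to 4.85 CPM. The simple-epithelium keratins Krt18 (log2 2.88, SE 0.28) and Krt8 (log2 2.36, SE 0.31) stood apart alike, and the serine protease inhibitor Spint2 was at 24.9 to 41.2 against 9.35 to 18 CPM. Vil1, the microvillus protein villin, was near the limit of detection in both sets, at 0.195 to 0.763 against 0.0957 to 0.685 CPM, and was not called.

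Receptors and cell-surface enzymes had 9 of 10 called higher, with a median log2 difference of 2.44. Kl, which encodes the FGF23 co-receptor klotho, was at 156, 159, 311, 325 and 142 CPM in the rich libraries and at 20.6 to 63.3 (median 27.5) CPM in the poor ones (log2 2.78, SE 0.25). Prlr, the prolactin receptor, was at 21.8 and 18 CPM in the S-V libraries, 80.9 in D+V 2, 52.2 in D-V 3, with 20.4 in D-V 4, against 1.62 to 10.6 CPM (log2 3.69, SE 0.32). It was among the 17 choroid genes for which D+V 2 held the most, while D-V 3 held the most for 49. Ace, the angiotensin-converting enzyme, was at 86.5 to 210 against 11.2 to 36.4 CPM (log2 2.98, SE 0.26). Htr2c, the serotonin receptor 2C, which neurons also express, was at 70.9, 71.7, 95.1, 109 and 66.2 CPM against 22.2 to 57.5 (median 42.5) CPM (log2 1.12, SE 0.15). Htr2c was no longer called with a Ttr threshold of 4000 CPM. That threshold moves S-V 2 and S-V 4, at 3802 and 3603 CPM of Ttr, to the poor set. The growth hormone receptor Ghr was not called (log2 0.28, SE 0.12).

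Of the transcription factors of choroid and multiciliated cells, 4 of 8 tested were called higher, with a median log2 difference of 0.824. The factors of dorsal midline and choroid identity led. Otx2 (ENSMUSG00000021848), a homeobox factor needed for the choroid plexus, was at 14.6, 15.7, 23.8, 30.5 and 12.3 CPM in the rich libraries and at 0.988 to 5.86 (median 2.81) CPM in the poor ones (log2 2.96, SE 0.31). Lmx1a was at 1.54 to 3.59 against 0.158 to 0.762 CPM and Msx1 at 14.2 to 28 against 3.83 to 8.9 CPM. The factors of multiciliated cells differed less: Gmnc, which starts the multiciliated programme, had a log2 difference of 0.64 (SE 0.16), Rfx2 of 0.38 (SE 0.16) and Rfx3 of -0.02 (SE 0.10). Of these, Gmnc was called, but not without S-V 2, D+V 2 or D-V 3, nor with a Ttr threshold of 1000 CPM. Foxj1, the master factor of motile cilia, was at 15.4, 21.5, 26.3, 30.2 and 18 CPM in the rich libraries and at 7.86 to 25.2 (median 14.3) CPM in the poor ones, the sets overlapped, and it was not called (log2 0.69, SE 0.21). It was called without Control 1, the poor library with 25.2 CPM, without Control 3, S-V 2, D+V 1 or D-V 4, without all 3 Control libraries, with log2 Ttr CPM in place of the sets, and by limma voom. Mcidas was below the filter on low counts.

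Outside all 24 gene lists used here, those of the choroid and of the cell types that follow, 651 genes were called higher. Among the 6 of them with the smallest p and a regular symbol were Sulf1, a heparan sulphate endosulphatase, at 43.2 to 103 CPM against 3.92 to 14 CPM (log2 3.14, SE 0.25), and Frem1, an extracellular matrix protein of basement membranes, at 7.13 to 21.1 against 1.74 to 3.94 CPM (log2 2.33, SE 0.19). Steap2, a metalloreductase of iron and copper, had a log2 difference of 1.85 (SE 0.17), the junction protein paracingulin, Cgnl1, of 1.59 (SE 0.14), the signalling ligand Bmp6 of 1.58 (SE 0.14), and the galectin-binding protein Lgals3bp of 1.49 (SE 0.13). The largest difference under the naming rule was in Mfrp, a frizzled-related membrane protein, at 33.4 to 99.6 against 0.271 to 11.4 CPM (log2 4.84, SE 0.60). Mfrp overlaps the gene C1qtnf5, and reads may be shared between them.

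Motile cilia genes were examined next, since both the choroid epithelium and the ependyma, the ciliated cell layer that lines the ventricle walls, express them. The direction of the part that the choroid epithelium expresses follows from the choice by Ttr. The calls and p-values of this list thus describe the split and are no separate support. Of 32 tested genes 14 were called higher, all 32 had a positive difference, and their median log2 difference was 0.752, beside 4.97% of all genes called higher. The sets overlapped for 30 of the 32. Spag16, a protein of the axoneme central pair, was at 4.04, 4.24, 7.95, 7.15 and 3.72 CPM in the rich libraries and at 1.07 to 3.25 (median 1.81) CPM in the poor ones (log2 1.5, SE 0.24, edgeR adjusted p 0.000305). Mlf1, a ciliary and nuclear protein, was the other gene without overlap, at 2.96 to 5.61 against 0.636 to 2.84 CPM. The dynein heavy chain Dnah11 was at 2.81 to 8.4 against 0.912 to 3.46 CPM (log2 1.47, SE 0.24, edgeR adjusted p 0.000444), and the microtubule protein Tekt1 at 5.53 to 12.5 against 2.84 to 6.81 CPM (log2 0.95, SE 0.19, edgeR adjusted p 0.0026).

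Control 1, a poor library with Ttr at 325.1 CPM, held the most of 28 of the 32 cilia genes among the poor libraries, and it was above every rich library for 8 of them. Ccdc153, an axonemal protein, was at 26.9 CPM in Control 1 and at 9.17 to 15.2 CPM in the rich libraries. The cilia score, the mean log2 CPM of the list minus its mean over the 18 libraries, was 0.736 in Control 1, 0.919 in D+V 2, 0.784 in D-V 3, 0.487 in S-V 4, 0.266 in D-V 4, with 0.154 in S-V 2. D+V 5, the poor library with the most Ttr, was at -0.569. The cilia score thus did not follow the choroid lists across the poor libraries, and for 0 of the 69 choroid genes did Control 1 exceed every rich library. The fit called 19 cilia genes without Control 1. It called 5 without D+V 2, 7 without D-V 3, 9 without S-V 4, and 5 with the Ttr threshold at 1000 CPM.

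Promoter letters, which the choice of libraries did not use, were counted for the cilia genes, with no test. The factors of the RFX family, which act with Foxj1 on cilia genes, bind inverted repeats of a half-site with the letters GTTGCC. Promoter windows of 250 bases before to 50 bases after the start (RefSeq, GRCm38.p6) were found for 27 of the 32 cilia genes, some with several starts. Of 33 such windows 13 (39.4%) held GTTGCC on either strand, beside 12.51% of 32851 windows of all genes and 17.3% of 81 windows of the choroid genes, for which 55 of 69 genes had a window. The letters TAATCC, the core bound by Otx2, on either strand, were in 4 of the 81 choroid windows (4.9%), 4 of the 33 cilia windows (12.1%) and 7.06% of all windows. A match describes these letters only and is no measured binding site.

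Of the windows with a match, 4 are shown to make these letters visible: those of Spag16 and Mlf1, the cilia genes without overlap between the sets, that of the tektin gene, and 1 of the Otx2 starts. Capitals mark GTTGCC or its reverse complement GGCAAC in the cilia genes, and GGATTA, the reverse complement of TAATCC, in Otx2. Spag16 and Tekt1 each hold both orientations of the half-site, in the order GGCAAC and then GTTGCC, with more bases between them in Tekt1. Whether either pair forms the inverted repeat that RFX factors bind was not tested.
Spag16, chr1:69826720-69827019, plus strand: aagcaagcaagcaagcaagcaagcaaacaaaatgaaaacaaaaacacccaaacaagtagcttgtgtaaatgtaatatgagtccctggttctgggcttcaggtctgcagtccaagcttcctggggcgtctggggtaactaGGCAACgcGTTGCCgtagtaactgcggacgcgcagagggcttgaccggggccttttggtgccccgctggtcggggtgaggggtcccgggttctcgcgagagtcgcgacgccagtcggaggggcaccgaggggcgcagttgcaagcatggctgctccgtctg
Mlf1, chr3:67373847-67374146, plus strand: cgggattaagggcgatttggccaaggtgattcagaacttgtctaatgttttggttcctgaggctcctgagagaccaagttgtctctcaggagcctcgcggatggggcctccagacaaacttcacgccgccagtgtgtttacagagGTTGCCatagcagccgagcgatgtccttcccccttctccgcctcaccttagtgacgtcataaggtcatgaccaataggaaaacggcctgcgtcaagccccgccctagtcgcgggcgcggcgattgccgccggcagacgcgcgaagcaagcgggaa
Tekt1, chr11:72361833-72362132, minus strand: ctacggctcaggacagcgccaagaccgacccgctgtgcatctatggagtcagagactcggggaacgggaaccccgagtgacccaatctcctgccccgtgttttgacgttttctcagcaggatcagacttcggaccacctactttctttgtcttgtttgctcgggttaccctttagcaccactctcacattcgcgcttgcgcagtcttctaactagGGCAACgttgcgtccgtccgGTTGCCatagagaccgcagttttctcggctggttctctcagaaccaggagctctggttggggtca
Otx2, chr14:48665060-48665359, minus strand: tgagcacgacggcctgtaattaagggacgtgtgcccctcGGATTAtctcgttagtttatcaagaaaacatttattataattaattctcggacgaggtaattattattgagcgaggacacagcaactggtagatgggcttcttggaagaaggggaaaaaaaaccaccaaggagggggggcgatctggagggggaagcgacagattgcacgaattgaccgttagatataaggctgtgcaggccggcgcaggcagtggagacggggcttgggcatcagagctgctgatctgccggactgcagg

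Stroma of the plexus and of the meninges shares its fibroblast markers. Since stroma and fenestrated capillaries are parts of the plexus, the direction of their genes may follow from the choice by Ttr. The calls and p-values of the fibroblast and fenestrated capillary genes thus describe the split and are no separate support. Of 20 fibroblast genes tested, 2 were called higher, beside 4.97% of all genes, and all 20 had a positive difference, with a median log2 difference of 0.578. Pcolce, an enhancer of collagen processing, was at 15.3, 16, 28.2, 34.3 and 25.5 CPM in the rich libraries and at 2.85 to 14 (median 5.5) CPM in the poor ones (log2 2.16, SE 0.25, edgeR adjusted p 1.04e-05). Ogn, the proteoglycan osteoglycin, was at 5.69 to 11.3 against 1.88 to 7.75 CPM (log2 1.03, SE 0.24, edgeR adjusted p 0.0137), and it was no longer called without D+V 2 (adjusted p 0.0558). Defining fibroblast genes overlapped widely: Dcn, the proteoglycan decorin, was at 21.4 to 73.1 against 21.9 to 69.9 CPM, and the collagen gene Col1a1 at 5.69 to 17.1 against 4.22 to 18.8 CPM (log2 0.54, SE 0.27, adjusted p 0.344). Ptgds, the prostaglandin D synthase of meninges and plexus, was at 421 to 1320 against 291 to 897 CPM (log2 0.60, SE 0.28, adjusted p 0.296). The fibroblast score was highest in D-V 4 (1.006), then in the poor library Control 2 (0.755), D-V 3 (0.622) and S-V 4 (0.501), while D+V 2, with high choroid genes, was at 0.021. The count of called genes was 6 without Control 2, 5 without D+V 1, 4 without Control 3, 8 by limma voom, 5 by DESeq2, and 1 and 5 with Ttr thresholds of 1000 and 4000 CPM.

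**Figure D2:**
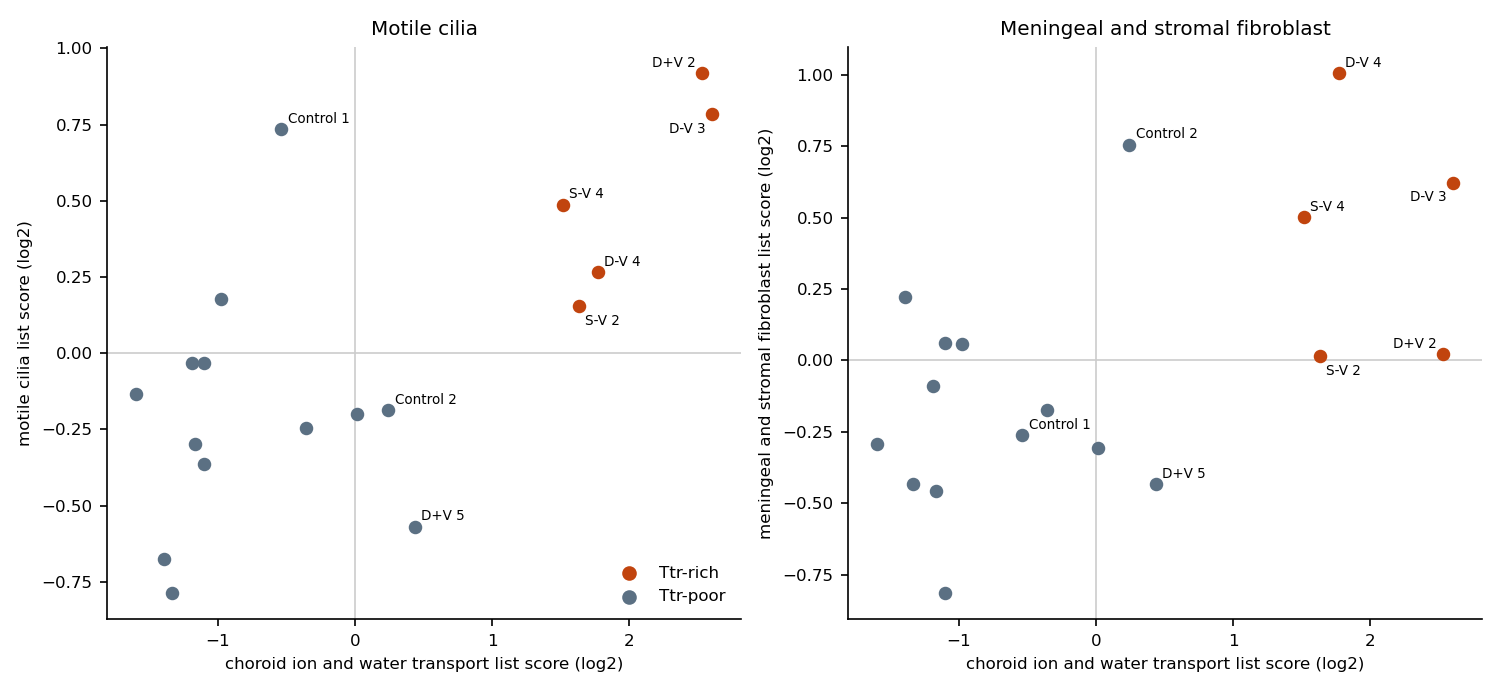
Score of the choroid ion and water transport list (x axis) against the scores of the motile cilia list (left, y axis) and the fibroblast list (right, y axis), as log2 units from the mean of the 18 libraries, 1 point a library. Control 1 has a cilia score of 0.736 without high choroid genes, and D+V 2 a fibroblast score of 0.021 with them.

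Vessels differed little. Plvap, the diaphragm protein of fenestrated capillaries, was at 8.2, 8.68, 10.9, 15.7 and 13.8 CPM in the rich libraries and at 5.85 to 11.9 (median 7.85) CPM in the poor ones (log2 0.59, SE 0.13, edgeR adjusted p 0.00643). The other marker of fenestrated capillaries, Esm1, was at 1.05 CPM or less in every library and was not called (log2 1.74, SE 0.63). Among the fits with a library left out it was called only without S-V 3. Esm1 was also called with a Ttr threshold of 4000 CPM and with log2 Ttr CPM in place of the sets. Of 20 genes of the barrier endothelium and pericytes, 1 was called higher, beside 4.97% of all genes, which is a like share. It was Emcn, the sialomucin endomucin of veins and capillaries (log2 0.52, SE 0.14, edgeR adjusted p 0.0384). That call was lost without any of S-V 1, S-V 5, D+V 2, D+V 3, D+V 4, D+V 5 or the 5 D-V libraries, with the highest adjusted p, 0.162, without D+V 2. The list's median log2 difference was 0.0217, close to that of all genes. The claudin Cldn5 of the blood-brain barrier had a log2 difference of -0.13 and the pericyte receptor Pdgfrb of 0.03.

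Among immune genes, those of antigen presentation and border macrophages, which reside in the plexus and meninges, had 4 of 11 called higher, beside 4.97% of all genes, with a median log2 difference of 0.813 and 11 positive. Cd74, the invariant chain of MHC class II, was at 6.6 CPM in S-V 2, 20.1 in S-V 4, 11.9 in D+V 2, 12.9 in D-V 3, with 18.5 in D-V 4, against 2.53 to 11.3 (median 5.14) CPM in the poor libraries (log2 1.42, SE 0.25, edgeR adjusted p 0.000757). S-V 2 lay within the poor range. Since border macrophages reside in the plexus, the direction of this list may follow from the choice by Ttr. Its calls and p-values describe the split and are no separate support. The MHC class II genes H2-Aa (log2 1.57, SE 0.27, adjusted p 0.000666) and H2-Ab1 (log2 1.38, SE 0.36, adjusted p 0.0272) had differences of like size, and the scavenger receptor gene Stab1 a small one (log2 0.36, SE 0.09, adjusted p 0.0218). The H2-Ab1 call was lost without any of S-V 3, S-V 4, S-V 5, D+V 2, D-V 2, D-V 3, D-V 4 or D-V 5, with adjusted p up to 0.169 (without S-V 4). That of Stab1 was lost without any of S-V 2, S-V 3, S-V 4, S-V 5, D+V 2, D-V 3 or D-V 5, with adjusted p up to 0.116 (without D+V 2). The list's count was 2 with a Ttr threshold of 4000 CPM, and 2 without D+V 2, D-V 3, D-V 5, S-V 3, S-V 4 or S-V 5. Of the border macrophage markers in the list, only Stab1 was called in the fit with all libraries. Not called were Mrc1 (edgeR adjusted p 0.0838), F13a1 (0.0944), Pf4 (0.112), Clec12a (0.338) and Ms4a7 (0.489). Lyve1 and Cd163 were not called either and were at 1.69 CPM or less throughout. Of 12 microglia genes 0 were called, with a median log2 difference of 0.0326 and a highest of 0.121.

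The red blood cell score was highest in D+V 2, at 1.293, and ran from -0.189 to 0.635 in the other rich libraries and from -0.853 to 0.482 in the poor ones. The globin gene Hbb-bs was at 1360 CPM in D+V 2, at 344 to 723 CPM in the other rich libraries and at 170 to 635 CPM in the poor ones. Of 11 genes 1 was called higher, beside 4.97% of all genes: Tspan33, a tetraspanin of the red cell lineage that epithelia also express, at 28.2 to 39 against 18.4 to 29 CPM (log2 0.54, SE 0.08, edgeR adjusted p 0.000216). Hba-a1 was not called (log2 0.59, SE 0.25, adjusted p 0.252), and reads of the globin genes may be split among near-identical copies. The count was 4 without D-V 4, where Alas2, the first enzyme of haem synthesis in red cells, was among those called (log2 0.955, edgeR adjusted p 0.0282). It was 0 with a Ttr threshold of 4000 CPM, and 6 with the replicate number as a further term of the fit, Hba-a1 among them. The list's median log2 difference was 1.59 within D+V, 0.131 within S-V and 0.129 within D-V. Blood content was not tested as a source of other differences.

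By edgeR with the Ttr threshold at 2000 CPM and all libraries, no gene of the neuronal lists or of the other glia was called. This covers 10 granule cell, 16 pyramidal cell, 13 interneuron, 14 astrocyte and 15 oligodendrocyte lineage genes, with median log2 differences of -0.0866, -0.11, -0.0996, 0.0318 and -0.0558. Negative differences were in the majority in the 3 neuronal lists, in 9 of 10, 12 of 16 and 11 of 13 genes, and likewise in the oligodendrocyte list, in 13 of 15. The groups did not share this sign. Within S-V the positive differences in these 4 lists numbered 1, 4, 8 and 1 in the same order. They numbered 8, 10, 2 and 11 within D+V, which rests on D+V 2, and 4, 5, 2 and 6 within D-V. With a Ttr threshold of 4000 CPM positive differences were in the majority in 3 of these 4 lists, in 7 of 10 granule cell, 9 of 16 pyramidal cell and 10 of 15 oligodendrocyte lineage genes. Prox1 had a log2 difference of -0.10 (SE 0.13, adjusted p 0.76) and Aqp4, the astrocyte water channel, of 0.02 (SE 0.07, adjusted p 0.938), in the edgeR fit. Markers of thalamus and habenula, which adjoin the hippocampus, had 0 of 15 called and a median of 0.00998, and Tcf7l2 was at 3.61 to 6.66 against 2.73 to 12.6 CPM. Of 27 immediate early genes, which neuronal firing induces, and 20 glucocorticoid-responsive genes, 0 and 0 were called. DESeq2 called 1 immediate early gene lower and 0 genes of the neuronal, astrocyte and oligodendrocyte lists, and limma voom called 2 immediate early genes and 1 interneuron gene lower and 1 astrocyte gene higher. With the Ttr threshold at 4000 CPM 1 pyramidal cell gene was called higher and 1 interneuron gene lower, and with log2 Ttr CPM in place of the sets 1 astrocyte gene was called higher and 2 immediate early genes lower. Without D-V 4 the calls were 1 astrocyte gene higher and 1 interneuron gene lower, and without S-V 2 or D+V 3 they were 1 immediate early gene lower. Fos had a log2 difference of 0.19 (SE 0.16), Fkbp5 of -0.07 (SE 0.08) and Tsc22d3 of -0.03 (SE 0.09). The glucocorticoid-list gene farthest from 0, Lcn2, was at 0.65 to 15 against 0.135 to 4.08 CPM and was not called (log2 1.81, SE 0.72, adjusted p 0.199).

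**Figure D3:**
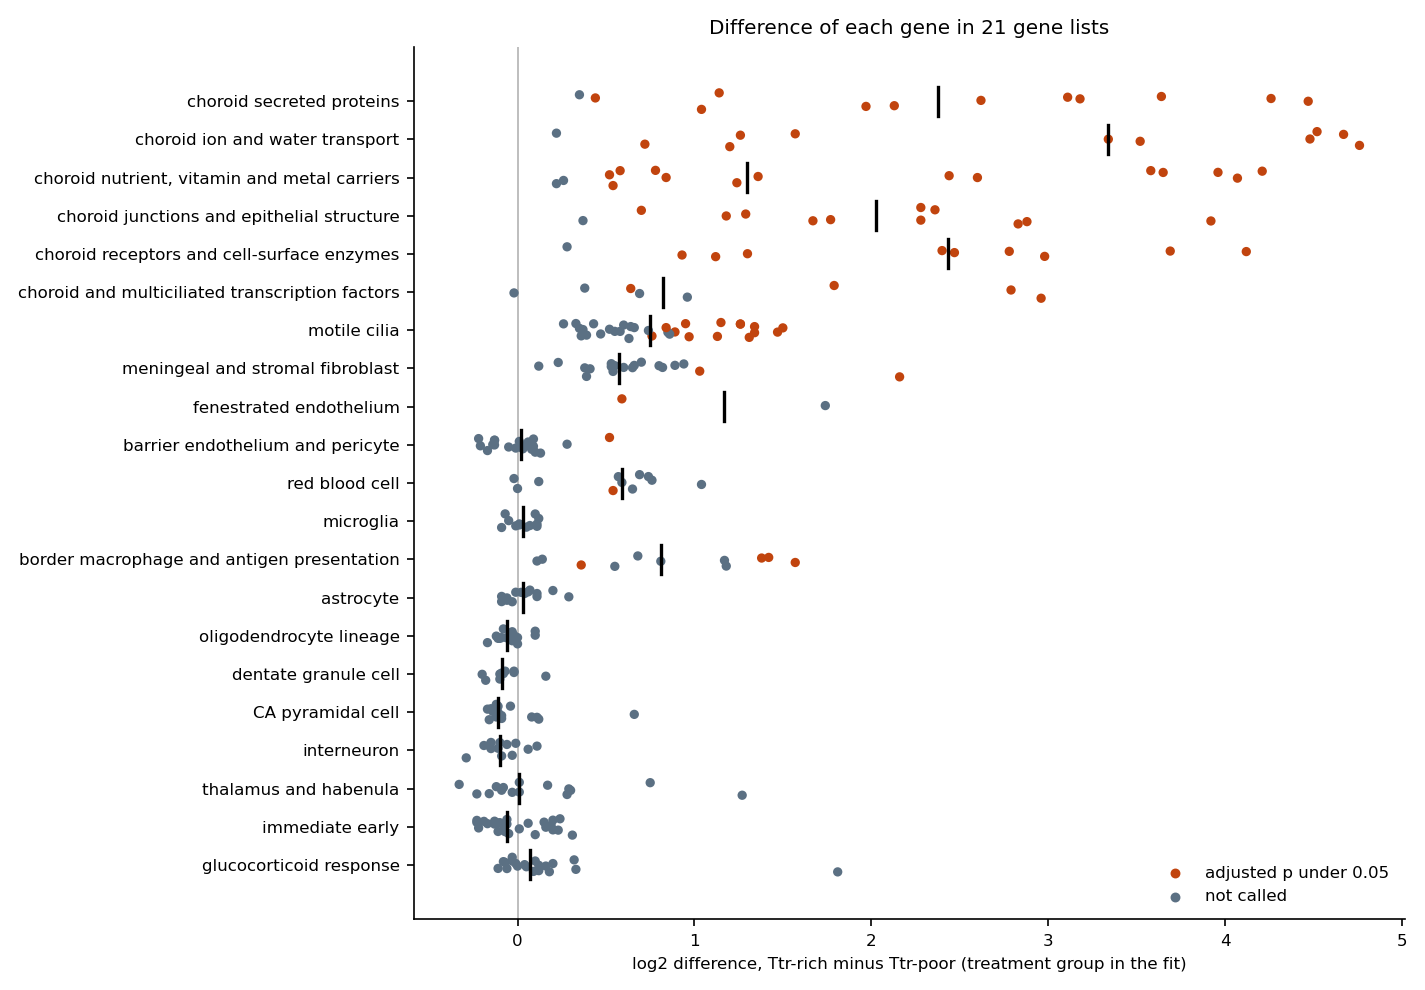
Log2 difference of the Ttr-rich from the Ttr-poor libraries for each gene (points) in 21 gene lists, with the treatment group in the fit. Vertical bars are list medians, from 3.34 for choroid ion and water transport to -0.11 for pyramidal cells, and coloured points passed the adjusted p threshold of 0.05.

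The 32 genes called lower had small differences, from -0.155 to -0.34 on the log2 scale for all but 1 of them. With the smallest p, Nkain2, a protein that interacts with the sodium pump, was at 47.5, 45.5, 46.5, 46.8 and 49.3 CPM in the rich libraries and at 45.6 to 59.7 (median 53.8) CPM in the poor ones (log2 -0.23, SE 0.05, edgeR adjusted p 0.0131). The sets overlapped, as they did for all 32 genes. Sema5b, a semaphorin of axon guidance, was at 10.5 to 13.5 against 12.7 to 19.4 CPM (log2 -0.31, SE 0.08), and the membrane protein gene Tmem200a at 21.6 to 30.2 against 25.3 to 33.9 CPM (log2 -0.34, SE 0.08). The other named genes were Vstm2a (log2 -0.23), Brinp2 (log2 -0.24), Maneal (log2 -0.24), Fam171a1 (log2 -0.18) and Ugcg (log2 -0.22), which encodes the ceramide glucosyltransferase. Only Jchain, the immunoglobulin J chain, named after its values were seen, was past 2-fold (log2 -1.76), at a mean of 0.171 CPM in the rich and 0.502 CPM in the poor libraries. The count of lower genes was 51 without Control 3, 85 without S-V 2, 13 without S-V 4, 21 without S-V 5, 75 without D+V 1, 2 without D+V 2 (Sema5b and Zbtb25), 13 without D-V 2, 2 without D-V 3 (Maneal and Fam171a1) and 66 without D-V 4.

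Each rotated group held both sets, so the difference was also fitted within each group. Within S-V, 2 rich libraries against 3 poor ones, 26 genes were called, 0.176% of all: 25 higher and 1 lower. Within D-V, 2 against 3, 373 genes were called, 2.53%: 371 higher and 2 lower. D+V held a single rich library, D+V 2, against 4 poor ones. A single library has no spread of its own, and the fit takes the spread from the other libraries of all groups. The D+V differences thus describe D+V 2 and have no replicate. All 25 genes called higher within S-V were also called within D-V, which is 100% of the S-V calls and 6.74% of the D-V calls. The rich and poor libraries of S-V and D-V are separate libraries, but both splits were made by Ttr.

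Nearly all choroid genes were positive in each of the 3 groups, where the D+V values rest on D+V 2 alone. Of the 69 choroid genes 68 were positive within S-V, 69 within D+V and 67 within D-V. The median log2 difference of the ion and water transport list was 2.31 within S-V, 3.67 within D+V and 4.09 within D-V, and that of the secreted list 1.72, 2.47 and 2.92. The difference was larger within D-V than within S-V for 64 of the 69 genes. Kcne2, for example, was at 3.45 within S-V, 5.14 within D+V and 6.28 within D-V on the log2 scale. The rich libraries of S-V had 3802 and 3603 CPM of Ttr and those of D-V 10020 and 4882, and the poor libraries of S-V reached 663.9 CPM where those of D-V reached 137.8. The part of this Ttr gap in the larger D-V differences was not tested. Fibroblast genes had a median of 0.331 within S-V, -0.00639 within D+V and 1.29 within D-V. The test of the difference between the S-V and D-V effects called 0 genes, 0% of all (smallest edgeR adjusted p 0.0952), with 1209 genes at an unadjusted p under 0.05. DESeq2 called 4, Wfikkn2, Gm45140, Tmem140 and Ephx1, each with a higher value within D-V. With a single rich library in D+V, the S-V and D+V effects were not tested against each other.

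**Figure D4:**
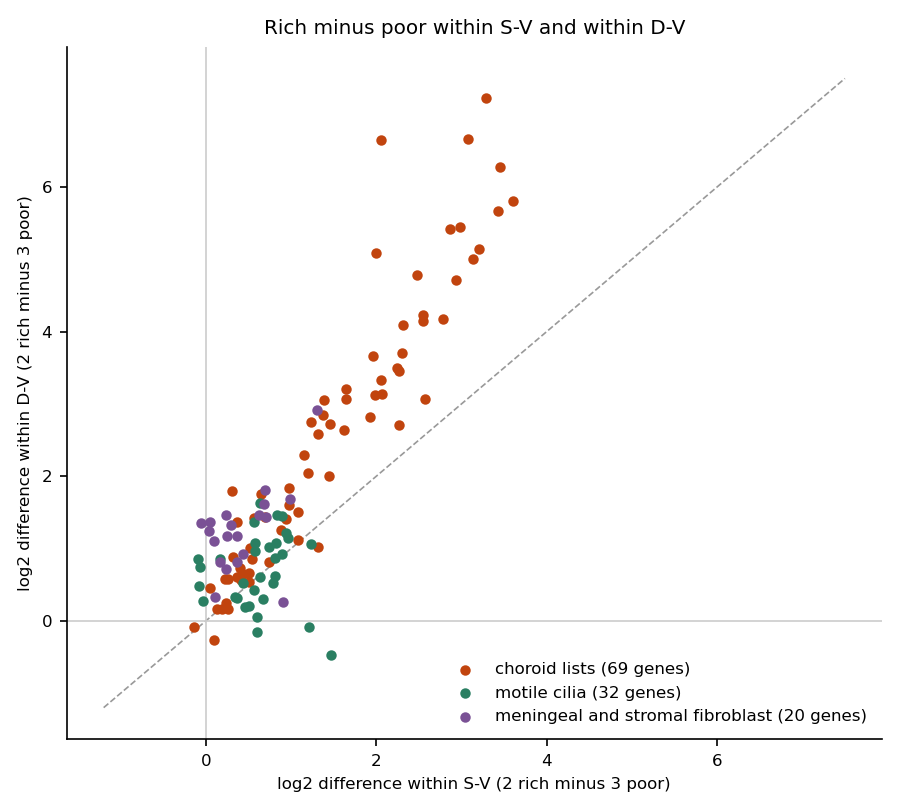
Log2 difference of rich from poor libraries within S-V (x axis) and within D-V (y axis) for the genes of the choroid lists, the motile cilia list and the fibroblast list. Most of the 69 choroid genes lie above the dashed line of equal difference, 64 of them with the larger value within D-V.

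The split also entered the study's own comparisons with Control, since all 3 Control libraries were poor. Without a term for the set, the ion and water transport list had a median log2 difference from Control of 1.28 for S-V, 1.26 for D+V and 2.04 for D-V. With the set as a term the medians were -0.366, -0.0229 and -0.374. The other choroid lists shifted alike, the secreted list from 1.23 to -0.286 in D-V and the receptor list from 0.89 to 0.137 in D+V. Since the sets were chosen by Ttr, the shift of the choroid lists follows from the choice and is a description only. In D-V the cilia list went from 0.177 to -0.237, the fibroblast list from 0.092 to -0.303 and the border macrophage list from 0.266 to -0.226. Lists of neurons and neighbouring tissue moved less: in D-V the thalamus and habenula list was at -0.783 without the term and -0.851 with it, and the immediate early list at -0.0985 and -0.0988. The red blood cell list stayed positive in D-V, at 1.15 and 0.887. The 3 comparisons share their Control libraries and are given side by side only.

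At the gene level the term left the counts of S-V and D-V at 0 and raised that of D+V. S-V against Control had 0 calls with the term, 0% (smallest edgeR adjusted p 0.0868, 2300 genes at an unadjusted p under 0.05), and 0 without it, 0%. D-V against Control had 0 with the term, 0% (smallest edgeR adjusted p 0.141, 1217 genes at an unadjusted p under 0.05), and 0 without it, 0% (smallest 0.54, 916 genes). D+V against Control had 189 with the term, 1.28% of all genes, of which 156 were higher and 33 lower, and 134 without it, 0.908%. The D+V count rested on single libraries: with the term it was 0 without Control 1, 2 without Control 2, 659 without Control 3, 1674 without D+V 1, 119 without D+V 2, 15 without D+V 3, 62 without D+V 4 and 26 without D+V 5. Among the poor libraries alone, 1 gene was called in D+V against Control, Elavl2, a neuronal RNA-binding protein (log2 0.78), and 1 in S-V, the long non-coding RNA Snhg11 (log2 -0.70).

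**Figure D5:**
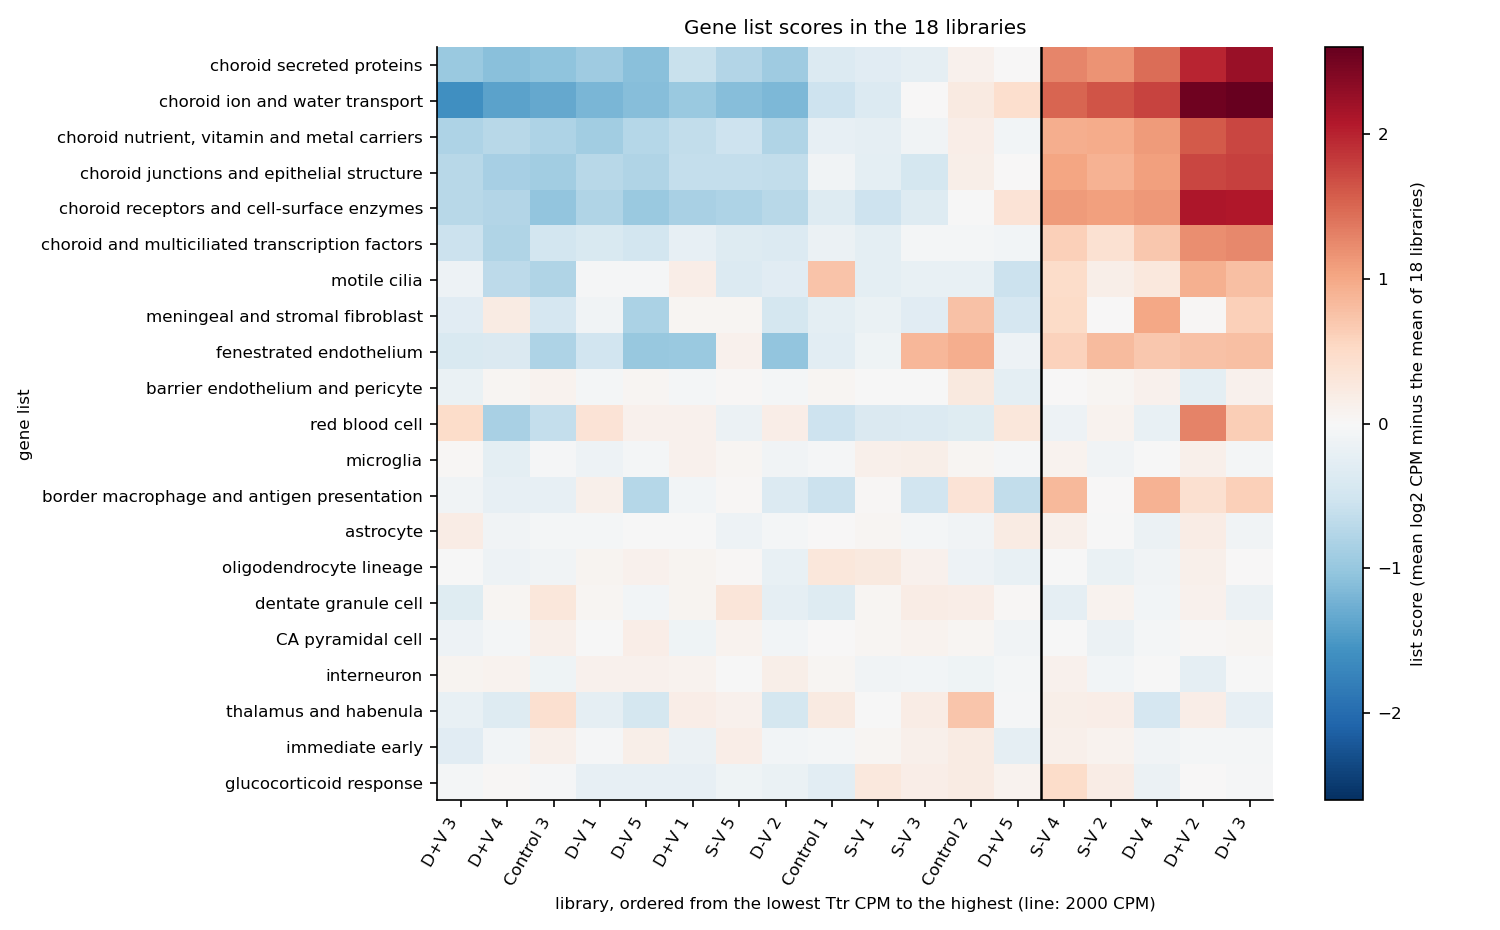
Score of each gene list (rows, colour: mean log2 CPM minus the mean of the 18 libraries) in every library (columns), ordered by Ttr CPM, with a line at 2000 CPM. The 6 choroid lists change along the order, while the cilia score is 0.736 in Control 1 and the red blood cell score 1.293 in D+V 2.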

How the data were processed

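Polyadenylated RNA of 18 hippocampus samples was sequenced. The authors deposited estimated counts per gene, per the file headers and the values, of which 7.35% are not whole. Bowtie2 2.2.8, HISAT2, StringTie 1.3.1 and DESeq2 stand in the submitters' processing notes. The genome build is not given in the sources used here, nor is strand use.

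Counts were rounded, filtered (edgeR filterByExpr by group), scaled by TMM and fitted with edgeR 4.0.16 (quasi-likelihood, R 4.3.3) with group and set as terms. Calls needed an adjusted p (Benjamini-Hochberg) under 0.05. The common biological coefficient of variation was 12.1%. Printed levels are CPM of the library total, SE is that of the log2 difference, and list scores use a prior count of 2. Test scripts were tested on simulated data. Of 22063 identifiers 21973 had a symbol.

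Members and the 24 gene lists were chosen with earlier results of these data known. Genes were named by rule (mean log2 CPM of at least 0): the 8 smallest p in each direction, the 6 largest differences, the 6 smallest p in each direction outside the choroid, cilia and stroma lists, the 4 smallest p of each list, and 22 fixed genes. Other list members were picked after their values were seen. The planned test of S-V against D+V effects was replaced by S-V against D-V. Alternatives used other scaling, filters, tools (limma 3.58.1, DESeq2 1.42.0), Ttr thresholds, covariates, a replicate block and libraries left out. Results for some list members are not reported here.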

Additional observations from a re-analysis of the deposited data

Results flagged for a closer look

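Outlying libraries were sought in 54 sets of list scores (18 lists outside the choroid epithelium in the S-V, D+V and D-V groups of 5), by the gap of the highest or lowest library to its neighbour relative to the group's range. It passed the 95% critical value in 2 sets, where chance alone passes about 1 in 20. The dentate granule cell score of the poor library D+V 3 was -0.316, while the other D+V libraries were at 0.035 to 0.121. The immediate early score of the poor library D-V 5 was 0.144, while the other D-V libraries were at -0.083 to -0.03. Neither was a rich library. No named gene differed between the S-V and D-V effects at an adjusted p under 0.05 (0 of 126, edgeR).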

How the results depend on the processing

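The count of higher genes stayed within 1.5 times of 733 in 30 of 31 alternatives and was 419 to 819 with a library left out. The 32 lower genes became 17 with library totals alone, 9 with no covariate, 15 and 93 with Ttr thresholds of 1000 and 4000 CPM, 111 with log2 Ttr CPM in place of the sets, 149 by DESeq2, 250 by limma voom and 2 to 85 with a library left out. Of 51 named genes called higher 42 kept the call in every alternative that gave them an adjusted p, and of 8 called lower 0 did. For Aqp1, Kcne2, Lmx1a, Mfrp and Slc4a5 that was 30 of 31 alternatives. The median of all genes moved by under 0.1 in each. With a Ttr threshold of 4000 CPM the list medians of pyramidal cells, granule cells and oligodendrocytes turned from negative to positive, the first to 0.031 and the second to 0.0223; the cause was not tested.

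The difference between the S-V and D-V effects had 2 calls with an open filter, 4 by DESeq2 and 0 in the others, those with a library left out included. In the poor libraries alone S-V against Control had 1 call and D+V 1. With log2 Ttr CPM as the covariate in place of the set, D+V against Control had 280 calls, and S-V and D-V 0 each. With a library left out D+V had 0 to 1674, and S-V and D-V 0 each. With a replicate block D+V had 20, and rich against poor had 638 higher and 26 lower; Emcn, Gmnc, H2-Ab1, Ogn, Plvap and Stab1 lost the call. The block also raised the calls of red blood cell genes from 1 to 6 of 11 (Hba-a1, Hba-a2, Hbb-bt and Alas2 among them) and of cilia genes from 14 to 18 of 32, added Foxj1, lowered those of fibroblast genes from 2 to 1 and of border macrophage genes from 4 to 2, called 1 interneuron gene lower, and moved the oligodendrocyte median to 0.126. The labels do not say what the sample numbers stand for. Deviations of same-numbered samples in different groups correlated at -0.496 to 0.324 (median -0.173), against a median of 0.00731 for other pairs. Whether same-numbered samples were handled together was not tested. The S-V against D+V test of effects was not run.

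Depth limits genes near 0 CPM, as with Aqp1, where 1 poor library had 0 counts. The rich set holds 5 libraries, 1 of them in D+V and 0 in Control, so group and set overlap. DESeq2 gave no adjusted p for 4 named genes (Aqp1, Kcne2, Mfrp and Slc4a5).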
